A study of Oryctolagus cuniculus with 9 samples.

Results

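The cytosolic ribosomal protein genes were examined in RNA-seq of rabbit knee cartilage. They comprise every gene of the deposited tables whose symbol is RPL or RPS followed by a number and at most a closing A, X or Y, together with RPLP0 to RPLP2 and RPSA where listed. This rule used names only and found 38 of 14870 listed genes, 21 of the large and 17 of the small subunit. The RefSeq annotation of the rabbit assembly mOryCun1.1 holds 76 symbols of this form, all 38 members among them, and its other 38 are not analysed here. The rule can find only genes with a symbol, which 11076 of the listed genes have.

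The study used New Zealand white rabbits, aged 4 to 5 months, and drilled full-thickness defects into the trochlear groove of both knees. The right defect received a porous scaffold of collagen and chondroitin sulfate (CLCS) and the left was left untreated. Cartilage was harvested 12 weeks after surgery from 3 defects treated with CLCS, 3 left untreated and 3 healthy areas, and polyA RNA was sequenced. The study's scheme places healthy tissue at the condyle, so that tissue state and site cannot be told apart. The paper names this strain only, and its text does not state which animals gave the healthy tissue. The labels do not say which libraries share an animal. The p-values below therefore measure the spread between these libraries, which may be partly technical.

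Ribosomal proteins coat the ribosomal RNA of the small subunit, which reads the mRNA, and of the large subunit, which joins amino acids into a chain. Most of their mRNAs open with a 5′ terminal oligopyrimidine (TOP) motif, through which mTOR and the RNA-binding protein LARP1 control their translation together with that of elongation factors. Chondrocytes depend on this machinery to make the collagens and proteoglycans of cartilage matrix.

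The deposited values are normalized reads, that is, reads divided by the size factor of their library, and whole reads could be recovered from them. Library totals ranged from 724986 to 1226408 reads. ENSOCUG00000023467, a gene without a symbol, took 1.49% to 49.4% of a library. ND6, encoded on the other strand than the remaining mitochondrial protein genes, took 86.0% to 94.4% of the reads on this set of 13. ACTB and GAPDH, which most cells express abundantly, had 10 to 128 and 15 to 91 reads per library. The strand setting of the count is not given in the sources used here, and its part in the values below was not tested.

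Cartilage markers were present, with COL2A1 at 4061 to 20508 reads in 8 libraries, while untreated replicate 3 stood apart with 505. The summed chondrocyte markers (11 of 16 listed genes found) lay at 8619 to 12164 normalized reads in healthy, 819 to 10114 in untreated and 10126 to 28232 in CLCS libraries. Fibroblast markers (9 of 10 found) lay at 602 to 1224 in healthy, 1798 to 5134 in untreated and 2512 to 4151 in CLCS libraries. Osteoblast markers (7 of 8 found) lay at 308 to 914, 985 to 2982 and 1864 to 2428 in the same order, so that neither sum in the defects overlapped the healthy range. Osteoclast markers (5 of 6 found) did not overlap the healthy range either, at 5.42 to 33 in healthy, 63.5 to 140 in untreated and 44.8 to 161 in CLCS libraries. In the defects this sum rested mainly on CTSK and MMP9. TNFRSF11A, CALCR and OCSTAMP had at most 8, 7 and 4 reads in any library. The genes of a list did not all point the same way. Of 7 tested fibroblast markers, limma called POSTN, COL1A1 and COL1A2 higher in both kinds of defect, while DCN had log2 fold changes of -2.22 and -1.79 at an unadjusted p under 0.05. POSTN, with 7, 1 and 0 reads in healthy libraries, passed the low-count filter through its defect reads alone, which favours higher values there. The 8 tested chondrocyte markers were all below 0 in untreated defects, where 51.5% of all tested genes were, while 4 were above 0 in CLCS treated defects. HAPLN1, COL11A1, ACAN and CILP were lower in untreated defects at an unadjusted p under 0.05, as were 8.01% of all tested genes. CILP was called lower in both kinds of defect, while COL2A1 was at -1.61 in untreated and 0.71 in CLCS treated defects without passing the test. IBSP, an osteoblast marker, was called higher in CLCS treated defects. Erythroid and endothelial markers had at most 10 and 14 reads in a library. In bulk tissue, fewer cells of a type and less RNA per cell cannot be told apart, and the part of these shifts in the ribosomal protein values was not tested.

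The ribosomal protein genes had few reads apart from RPL10. Their reads summed to 1883 to 5488 per library. As a share of the library this was 0.476%, 0.199% and 0.249% in healthy cartilage (mean 0.308% ± 0.148, SD, n = 3). Untreated libraries had 0.465%, 0.495% and 0.757% (0.572% ± 0.161), and CLCS libraries 0.547%, 0.407% and 0.263% (0.406% ± 0.142). The ranges of healthy and CLCS libraries overlapped, as did those of healthy and untreated libraries through healthy replicate 1. The 95% Wilson interval of any of these shares reached at most 0.02 percentage points to either side and covers counting error only, far less than the spread between replicates. In CLCS libraries the share depended on ENSOCUG00000023467, without which the means of the 3 groups were 0.399%, 0.659% and 0.599%. On that total the healthy libraries, at 0.278% to 0.583%, lay below the untreated ones at 0.602% to 0.768%, and the CLCS libraries at 0.519% to 0.685% overlapped both.

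The reads were spread very unevenly over the members. RPL10 and RPL4 averaged at least 100 reads, 15 others averaged 10 to under 100, and 21 averaged fewer than 10. In 10 members no library had more than 3 reads, and 24 had a read in every library. The median member averaged 9.67 reads, against 1.67 for all listed genes. These are reads and not levels per length, so that their order is not an order of expression. The plot of all members by library shows RPL10 apart from the rest.

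**Figure D1:**
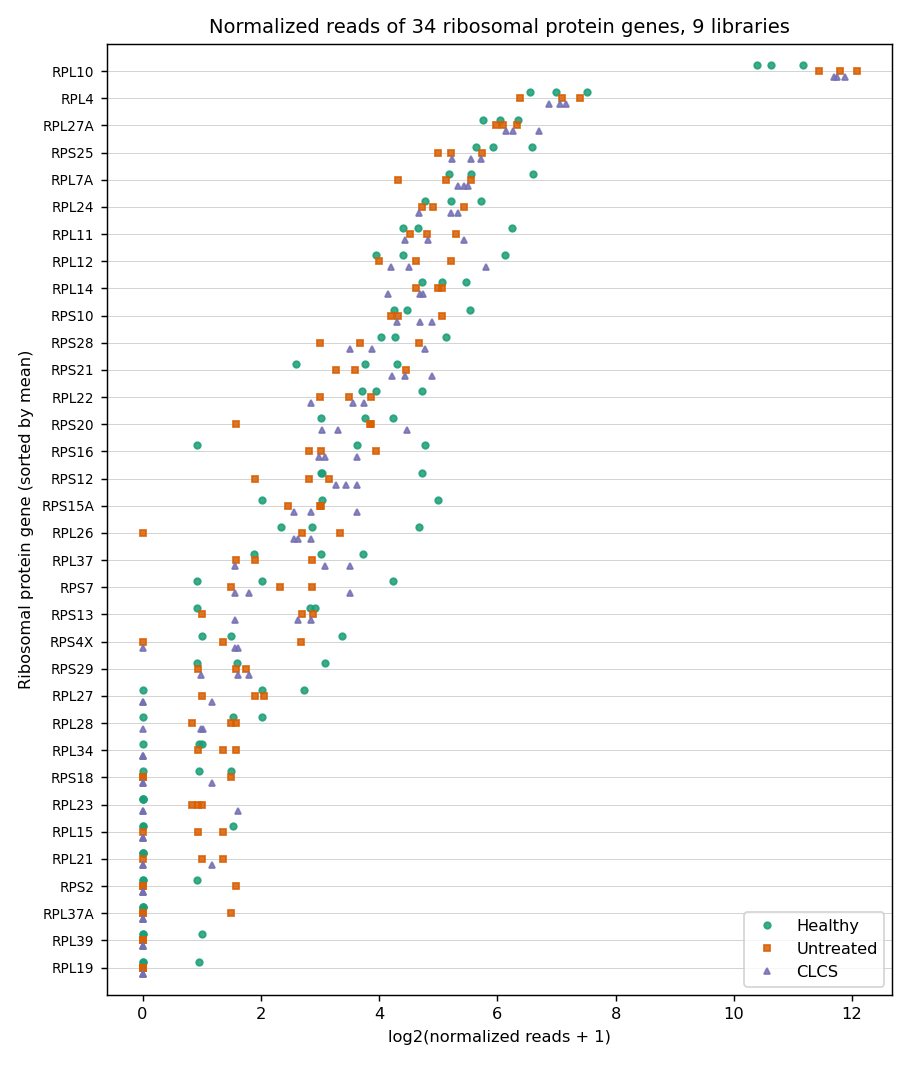
Normalized reads of 34 of the 38 ribosomal protein genes in the 9 libraries, as log2 of normalized reads plus 1 on the horizontal axis, with 1 row per gene and 1 point per library coloured by group. RPL10 lies apart from the other genes plotted in all libraries.

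RPL10 joins the large subunit late in its assembly in the cytoplasm, close to the peptidyl transferase centre. It had 2294, 1349 and 1579 normalized reads in healthy replicates 1 to 3, a mean of 1741 ± 493. Untreated libraries had 2769, 3560 and 4323 (3551 ± 777), and CLCS libraries 3750, 3304 and 3435 (3496 ± 229). Every library from a defect was above every healthy library, while the untreated and CLCS ranges overlapped. RPL10 alone made up 68.0% to 76.4% of the reads on members in healthy libraries, 82.6% to 89.8% in untreated and 85.1% to 86.2% in CLCS libraries. The counting error of these percentages was at most 2.06 points to either side (95% Wilson interval). By reads, RPL10 was number 37 of all listed genes.

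In untreated against healthy cartilage, the log2 fold change of RPL10 was 1.04 (SE 0.33, 95% interval 0.26 to 1.83), on the scale of log2 of normalized reads plus 1. Its p of 0.0162 became an adjusted p of 0.166 in limma, with Benjamini-Hochberg adjustment over 3496 tested genes, and did not pass the threshold of 0.05. In CLCS against healthy cartilage it was 1.04 (SE 0.30, 95% interval 0.35 to 1.73), with an adjusted p of 0.121 in limma over 3294 genes. The difference between CLCS and untreated was within the error, with a log2 interval of -0.64 to 0.64 (limma adjusted p = 0.9999). Over 15 other settings the value stayed between 0.88 and 1.26 against healthy cartilage for untreated and between 0.87 and 1.26 for CLCS treated defects. DESeq2 on the recovered reads was the only setting of these that called it, in CLCS against healthy cartilage (log2 fold change 1.02, adjusted p = 0.0168, with 0.0168 to 0.427 over the settings). For untreated against healthy cartilage its adjusted p ranged from 0.0612 with DESeq2 to 0.410. The study's own DESeq2 lists name RPL10 as higher in both kinds of defect than in healthy cartilage, at an adjusted p under 0.05. Without healthy replicate 1, which had the highest healthy value, the log2 fold changes were 1.26 and 1.26. Without untreated replicate 3, where COL2A1 was low, the untreated value was 0.89.

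**Figure D2:**
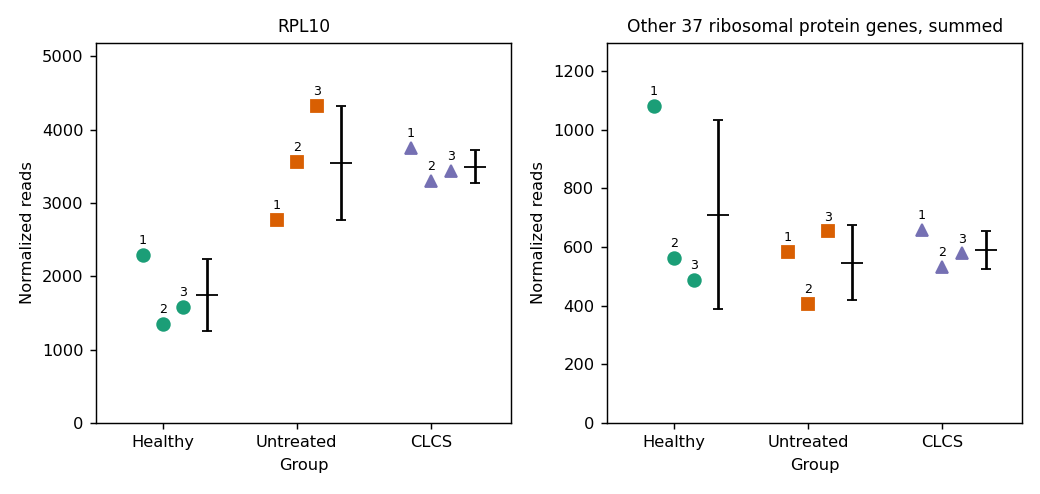
Normalized reads of RPL10 (left) and the sum over the other 37 ribosomal protein genes (right) in each library, numbered by replicate, with a bar for mean ± SD (n = 3) beside each group. RPL10 lies at 1349 to 2294 in healthy and 2769 to 4323 in defect libraries, whereas the sum of the others overlaps between the groups and is highest in healthy replicate 1 at 1081.

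The other 37 genes did not share this pattern. Their summed normalized reads were 1081, 562 and 488 in healthy (710 ± 323), 582, 405 and 653 in untreated (547 ± 128) and 658, 530 and 578 in CLCS libraries (589 ± 64.6). The 3 ranges overlapped. Small subunit genes held 32.6% to 38.1% of these reads in healthy, 25.7% to 32.5% in untreated and 30.2% to 33% in CLCS libraries. No test was made on these sums.

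Of the 38 genes, 18 passed the low-count filter in at least 1 comparison, 10 of the large and 8 of the small subunit, and 15 passed in all 3. In untreated against healthy cartilage limma called 0 of 18 tested members, where it called 2.55% of all tested genes. RPL10 was the 1 member with an unadjusted p under 0.05, with higher values, as had 8.64% of tested genes. It was also the 1 member whose untreated libraries all lay above the healthy ones, as in 11.3% of tested genes. For CLCS against healthy cartilage 0 of 17 members were called, beside 3.16% of all tested genes, again with RPL10 the 1 member with higher values at an unadjusted p under 0.05 (9.14% of genes) and the 1 member above healthy without overlap (12.2%). In CLCS against untreated cartilage 0 of 15 members were called, none had an unadjusted p under 0.05 and none was free of overlap, beside 0, 2.9% and 8.34% of all tested genes. edgeR called 0 members in each comparison, beside 2.49%, 3.73% and 0 of all genes, and DESeq2 called 0, 1 and 0 members in that order, beside 5.86%, 5.44% and 0 of all genes with an adjusted p. These shares are near or below those of all genes.

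Without RPL10, 13 of 17 tested members had a log2 fold change below 0 in untreated against healthy cartilage, where 51.5% of all tested genes did. The values of those reported singly ran from -0.78 to 0.21, the median of all 17 was -0.22, and the lowest adjusted p in limma was 0.392. In CLCS against healthy cartilage, 11 of 16 were below 0 (55.1% of all genes), with -0.74 to 0.96 among those reported singly, a median of -0.19 and a lowest adjusted p of 0.344 in limma. In CLCS against untreated cartilage, 12 of 14 were above 0 (49.5% of all genes), from -0.36 to 0.75 with a median of 0.20 and a lowest adjusted p of 0.996 in limma. The first and the second comparison share the healthy libraries, the first and the last the untreated ones, and the second and the last those with CLCS. With RPL10 included, the medians of the members were -0.22, -0.16 and 0.18, beside -0.02, -0.08 and -0.004 for all tested genes. Their direction rested on single libraries, as given below.

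**Figure D3:**
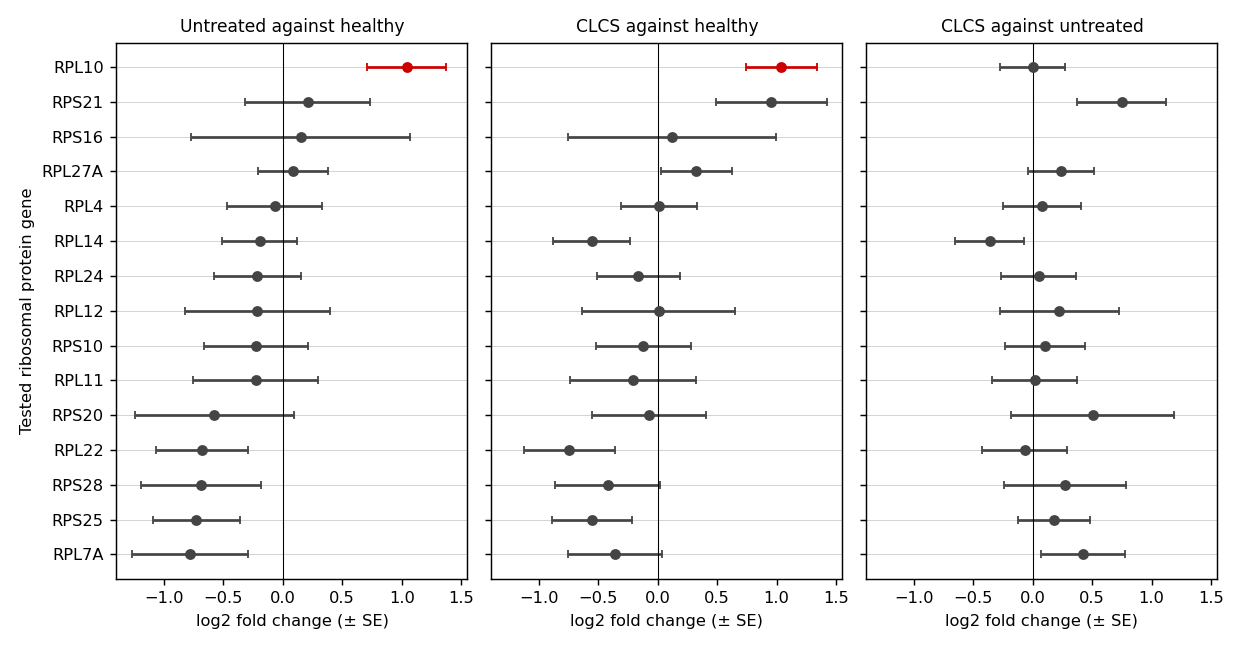
Log2 fold change of 15 tested ribosomal protein genes in the 3 comparisons, with a horizontal bar for ± SE from limma; red marks groups that do not overlap and a blank row a gene that was not tested. RPL10 has a log2 fold change of 1.04 in both comparisons with healthy cartilage, and the bars of most other genes reach 0 or come close to it.

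Among the large subunit genes, RPL4, whose protein lines the exit tunnel of the growing chain, came next in reads. It had 183, 126 and 93.1 normalized reads in healthy, 136, 82.0 and 167 in untreated and 142, 116 and 133 in CLCS libraries. The 3 groups overlapped throughout, and its log2 fold changes were -0.07 (SE 0.40), 0.01 (SE 0.32) and 0.08 (SE 0.33) for untreated against healthy, CLCS against healthy and CLCS against untreated. RPL27A had 65.0, 80.2 and 53.3 in healthy, 62.2, 80.0 and 67.1 in untreated and 70.3, 103 and 76.0 in CLCS libraries. CLCS replicate 2 was the highest of all, but the groups overlapped, with a log2 fold change of 0.33 (SE 0.30, limma adjusted p = 0.633) in CLCS against healthy cartilage.

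RPL7A had 96.1, 35.5 and 46.1 normalized reads in healthy, 33.9, 19.0 and 46.2 in untreated and 44.4, 39.4 and 42.3 in CLCS libraries. Healthy replicate 1 was far above the other libraries and untreated replicate 2 below them. The log2 fold change was -0.78 (SE 0.48, limma adjusted p = 0.510) in untreated against healthy cartilage and 0.42 (SE 0.36) in CLCS against untreated cartilage. RPL22, known for its role in the development of T cells, had 25.4, 12.2 and 14.5 in healthy, 10.2, 7.0 and 13.6 in untreated and 12.4, 10.8 and 6.23 in CLCS libraries. Its log2 fold change was -0.74 (SE 0.38, limma adjusted p = 0.371) in CLCS against healthy cartilage. CLCS replicate 1 was slightly above healthy replicate 2, so that the groups met there.

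RPL14 had 43.3, 25.4 and 32.5 normalized reads in healthy, 32.3, 31.0 and 23.6 in untreated and 25.8, 16.7 and 24.9 in CLCS libraries. It had the lowest log2 fold change of CLCS against untreated cartilage, at -0.36 (SE 0.29, limma adjusted p = 0.996). RPL11 joins the 5S RNA in the particle that binds MDM2 when ribosome assembly fails, and RPL24 forms a bridge between the subunits. RPL11 ran from 20.3 to 75.4 and RPL24 from 24.6 to 51.8 normalized reads over all libraries, both with healthy replicate 1 on top. RPL12, at the base of the stalk that recruits elongation factors, ran from 14.5 to 68.8 with healthy replicate 1 and CLCS replicate 1 on top.

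Among the small subunit genes, RPS25, which supports initiation at some viral internal entry sites, had the most reads. It had 95.2, 59.9 and 48.8 normalized reads in healthy, 52.8, 31.0 and 36.3 in untreated and 51.7, 36.4 and 46.1 in CLCS libraries. Only untreated replicate 1 and CLCS replicate 1 exceeded the lowest healthy library. The log2 fold changes were -0.73 (SE 0.37, limma adjusted p = 0.392) in untreated and -0.55 (SE 0.34, limma adjusted p = 0.454) in CLCS against healthy cartilage.

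RPS21 was the member with the highest log2 fold change after RPL10. It had 18.8, 5.07 and 12.6 normalized reads in healthy, 8.67, 11.0 and 20.9 in untreated and 20.7, 17.7 and 28.6 in CLCS libraries. The CLCS values overlapped the healthy range through healthy replicate 1 and the untreated range through untreated replicate 3. Between libraries of equal replicate number, the CLCS value was the higher in all 3 cases against healthy and all 3 against untreated libraries. The labels do not say that equal numbers share an animal. RPS21 was named for its fold change in these same values, so this order adds no separate evidence. The share of all genes with such an order was not counted. Its log2 fold change was 0.96 (SE 0.46, 95% interval -0.12 to 2.03, limma adjusted p = 0.344) in CLCS against healthy cartilage. In CLCS against untreated cartilage it was 0.75 (SE 0.38, 95% interval -0.13 to 1.63, limma adjusted p = 0.996). RPS20, which like RPS10 is ubiquitinated on stalled ribosomes, had 17.9, 7.10 and 12.6 in healthy, 13.4, 2.0 and 13.6 in untreated and 7.23, 8.86 and 21.2 in CLCS libraries. Untreated replicate 2 was the lowest with 2 reads, and without it the log2 fold change of 0.50 (SE 0.68) in CLCS against untreated cartilage became -0.25.

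Other tested members were described by their range. RPS10 ran from 17.3 to 45.2 normalized reads over all libraries and RPS28 from 7.0 to 33.9. RPS16, whose tail touches the transfer RNA in the P site, was the most uneven, with 11.3, 26.4 and 0.90 normalized reads in the healthy libraries alone. None of these had groups without overlap.

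The other 20 members passed the filter in no comparison. RPS12, RPS15A, RPL26, RPS7 and RPL37 were the best covered, and reached 27, 33, 26, 19 and 13 reads in healthy replicate 1. That library was also their highest. RPS13, RPS4X, RPS29 and RPL27 had at most 7, 10, 8 and 6 reads. In 10 others, RPL28, RPL34, RPS18, RPL15, RPL23, RPL21, RPS2, RPL37A, RPL39 and RPL19, no library exceeded 3 reads, and no fold is given for them. RPL19 and RPL39 had 1 read over all 9 libraries. A count of 0 allows up to 3 reads, which is 0.000245% to 0.000414% of the reads of a library, so that differences in these genes were not detectable at this depth.

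Most members had more reads in healthy replicate 1 than in the other healthy libraries. Among the 16 members other than RPL10 with a mean of at least 10 reads, it was the highest of the healthy libraries in 14, or 87.5%, where it was the highest for 29.7% of 3342 genes with as many reads. The median log2 difference of these members to the other healthy libraries was 0.93, against -0.05 for all genes. Without healthy replicate 1, the median log2 fold change of the tested members against healthy cartilage changed from -0.22 to 0.06 in untreated and from -0.16 to 0.21 in CLCS treated defects. In untreated cartilage, replicate 3 was the highest in 11 of the 16 and replicate 2 the lowest in 11. Without untreated replicate 2 the median of CLCS against untreated cartilage changed from 0.18 to -0.12, and without CLCS replicate 1, highest of its group in 11, it was -0.03. This description was chosen after the values were seen, and the members of a library share its RNA and depth.

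**Figure D4:**
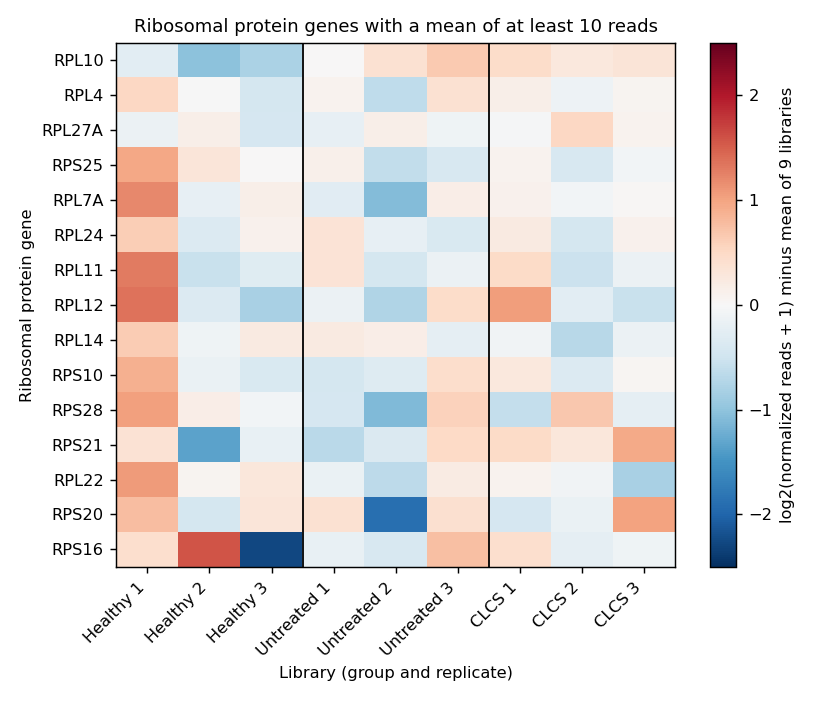
Deviation of log2(normalized reads + 1) from the mean of the 9 libraries, in colour, for 15 ribosomal protein genes with a mean of at least 10 reads (rows) in each library (columns; black lines divide the groups). Healthy replicate 1 is above the mean for most genes other than RPL10 and untreated replicate 2 below it, whereas RPL10 is below the mean in the 3 healthy libraries.

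Genes that share the TOP class with the ribosomal proteins were compared in the same way. Among 8 such genes with a mean of at least 10 reads, healthy replicate 1 was the highest healthy library in 5, with a median log2 difference of 0.57. EEF1A1, the elongation factor that brings transfer RNAs to the ribosome, had 147, 23 and 39 reads in healthy, 72, 44 and 58 in untreated and 53, 37 and 31 in CLCS libraries. It was thus highest in healthy replicate 1, like most members. Proteins of the mitochondrial ribosome, which are encoded by other genes, did not follow, with healthy replicate 1 on top in 2 of 11 and a median of -0.04. Of 26 genes of ribosome biogenesis it was on top in 4, with a median of -0.28. No test was made between these lists.

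Ribosome biogenesis genes process and assemble the ribosomal RNA in the nucleolus. Of 30 tested in untreated against healthy cartilage, limma called 0, beside 2.55% of all tested genes, and 4 had an unadjusted p under 0.05, all higher, as had 8.64% of all tested genes. These were MDN1 (log2 fold change 1.51, SE 0.34), DKC1 (1.60, SE 0.50), GNL3 (0.82, SE 0.33) and WDR74 (0.81, SE 0.28). In CLCS against healthy cartilage, 0 of 26 were called, and the same 4 genes were again those with higher values at an unadjusted p under 0.05, with log2 fold changes of 0.86, 1.19, 0.84 and 1.13, beside 9.14% of all tested genes. RRN3, a factor of RNA polymerase I, had a lower value of -1.27 (SE 0.33, limma adjusted p = 0.0925). Lower values at an unadjusted p under 0.05 were found in 8.35% of all tested genes there. RRN3 had 14, 15 and 21 reads in healthy and 8, 4 and 5 in CLCS libraries. It passed the low-count filter through its healthy reads alone, which favours a lower value in CLCS libraries. The medians of the tested genes were 0.0004 and 0.15 in these comparisons. In CLCS against untreated cartilage, 0 of 25 were called and none had an unadjusted p under 0.05. The study's own DESeq2 lists name DKC1 as higher in both kinds of defect and WDR74 as higher with CLCS, at an adjusted p under 0.05.

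Of the genes of mTOR signalling and control of TOP mRNAs, 6 were tested in untreated against healthy cartilage, 0 were called by limma, and 4 had an unadjusted p under 0.05. LAMTOR1, which anchors mTOR complex 1 to the lysosome, had 4, 4 and 4 reads in healthy and 29, 30 and 11 in untreated libraries (log2 fold change 2.06, SE 0.42, limma adjusted p = 0.0564). LAMTOR1 passed the low-count filter through its untreated reads alone, which favours a higher value there. It was not tested in CLCS against healthy cartilage. TSC2, an inhibitor of mTOR complex 1, had a lower value (-1.31, SE 0.38), as had the kinase MTOR (-1.18, SE 0.45) and LARP1 (-0.97, SE 0.41). Lower values at an unadjusted p under 0.05 were found in 8.01% of all tested genes of this comparison, and higher values in 8.64%. The study's own DESeq2 list for untreated defects names LAMTOR1 as higher and TSC2 as lower, at an adjusted p under 0.05, and its list for CLCS names neither. The paper also reports MTOR as altered in untreated defects only, although that list does not hold MTOR. For CLCS against healthy cartilage 0 of 5 were called, and in CLCS against untreated cartilage 0 of 5, with none at an unadjusted p under 0.05 in either.

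Among translation factors, limma called 0 of 15 initiation and 0 of 4 elongation and termination genes in untreated, and 0 of 12 and 0 of 4 in CLCS against healthy cartilage. Of all tested genes, 2.55% and 3.16% were called in these comparisons. EIF3J, a subunit associated with the initiation factor eIF3, had an unadjusted p under 0.05 in untreated against healthy cartilage (log2 fold change 1.23, SE 0.32, limma adjusted p = 0.0967) and a lower value in CLCS against untreated cartilage (-1.07, SE 0.43, limma adjusted p = 0.996). In both comparisons EIF3J passed the low-count filter through its untreated reads alone, which favours a higher untreated value. EIF5A was at 1.48 (SE 0.57, limma adjusted p = 0.235) in CLCS against healthy cartilage. Of the other TOP genes, 0 of 8, 0 of 6 and 0 of 6 were called in the 3 comparisons, with none at an unadjusted p under 0.05.

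The mitochondrial ribosome gave the only called gene of the ribosomal lists. Of 12 tested proteins limma called 0 in untreated against healthy cartilage and 1 in CLCS against healthy cartilage, beside 2.55% and 3.16% of all tested genes. This was MRPL35, a protein of the large mitochondrial subunit, with 10, 13 and 15 reads in healthy, 2, 5 and 2 in untreated and 1, 1 and 2 in CLCS libraries (adjusted p = 0.0627 and 0.0160 in limma). MRPL35 passed the low-count filter through its healthy reads alone, which favours a lower value in the defects. MRPL38 and MRPS10 also had lower values in both comparisons at an unadjusted p under 0.05, and did not pass the threshold after adjustment. In CLCS against healthy cartilage, 8.35% of all tested genes were lower at that p. The medians of the tested mitochondrial proteins were -0.02 and -0.06. Of 3 tested paralogs of ribosomal proteins, limma called 0 in either comparison with healthy cartilage, and RPL3L, the muscle form of RPL3, had a log2 fold change of -1.47 (SE 0.45, limma adjusted p = 0.154) in untreated against healthy cartilage. There RPL3L also passed the filter through its healthy reads alone. Of the p90 ribosomal S6 kinases and their relatives, RPS6KL1 had an unadjusted p under 0.05 in CLCS against untreated cartilage (0.97, SE 0.36, limma adjusted p = 0.996), with 0 of 2 called. Its reads were 6, 9 and 9 in untreated and 16, 10 and 16 in CLCS libraries, and 2.9% of all tested genes had such a p there. FAU, RACK1 and its older symbol GNB2L1, which are parts of the cytosolic ribosome under names outside the rule, are not analysed here.

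Many ribosomal protein genes lie close to others, and their reads then cannot be told apart from those of an overlapping gene without the strand. The neighbours were read from RefSeq for mOryCun1.1, whereas the reads had been aligned to oryCun2.0. There, 8 members overlap a protein-coding gene and 6 others lie within 1000 bases of one. The mean reads per library had a median of 25.1 over the members with such a neighbour and of 5.11 over the 24 without. A small nucleolar RNA lies within 16 of the genes, with a median of 9.83 reads against 8.61 in the others. RPL10 holds one of these RNAs and lies within 1000 bases of DNASE1L1, which had 0 to 3 reads per library. RPL15 shows the opposite case, since it had 0 to 2 reads while NKIRAS1, which overlaps it, had 902 to 1395. RPL27A overlaps TRIM66, which had 0 to 2 reads, and RPL24 overlaps CEP97, with 11 to 49. RPL4 lies near ZWILCH, which had 836 reads in untreated replicate 3, where RPL4 was the highest of its group, and 9 in each of the other untreated libraries. The other groups did not share this order. ZWILCH was highest of the healthy libraries in replicate 3, with 19 reads, where RPL4 was lowest. Of the CLCS libraries, ZWILCH was highest in replicate 3, with 53 reads, and RPL4 in replicate 1. RPS28 lies near KANK3, with 745 to 1857 reads. The part of these neighbours in the values was not tested. Multiple alignments were disregarded in the study's counting, so that the values of ribosomal protein genes with near-identical copies elsewhere in the genome are uncertain.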

How the data were processed

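RNA-seq of 9 libraries (3 healthy, 3 untreated, 3 CLCS) was used, with groups and replicate numbers from the labels. The members and lists were chosen with earlier results of these data known. The deposited signal per gene is the read count that the authors divided by the DESeq2 size factor of the library. According to their methods, TopHat with Bowtie placed the reads of polyA TruSeq libraries on oryCun2.0, reads with several alignments were dropped, and eXpress made the count per gene. Versions, annotation release and strand setting are not given in the sources used here. Whole reads were recovered for 100% of values (tolerance 0.001). No per-sample column was left unused.

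Pairs of groups were compared with limma 3.58.1 in R 4.3.3 (lmFit, eBayes) on the deposited values after adding a pseudocount of 1 and taking log2, for genes kept by filterByExpr of edgeR on the recovered reads of the 6 libraries, with Benjamini-Hochberg adjustment over all tested genes, and called at an adjusted p under 0.05. Alternatives were pseudocounts of 0.5 and 5, no filter, edgeR 4.0.16, DESeq2 1.42.0 with size factors of the 6 libraries, TMM-normalized log2 CPM, totals without ENSOCUG00000023467, all 9 libraries in 1 fit, a replicate block, and each library left out. Named were the 5 members with the highest mean, any called member, and the 3 highest and lowest log2 fold changes per comparison, with members of the other lists where the unadjusted p was under 0.05. RPL11, RPL12, RPL24, RPS10, RPS16, RPS28 and the untested members were described by range, and the choice of neighbouring genes followed a look at their values. 4 members are not reported singly here, but count in the sums, medians and counts. On simulated data, limma recovered 65.7% of 181 tested genes with a log2 change of 2 among 3459 in untreated against healthy cartilage, and 4.03% of its calls were unchanged genes. The simulation gave all genes a single common spread between libraries beyond counting error, and held no smaller change. These shares therefore hold for that setting only.

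Deviations of same-numbered libraries from their group means across 3812 genes correlated at 0.29, 0.13 and -0.04 between untreated and healthy libraries. Between CLCS and healthy ones the values were 0.28, 0.14 and 0.19, and between CLCS and untreated ones 0.25, 0.33 and 0.30. Correlations between libraries of different number were not computed, so these values cannot show whether equal numbers mark the same animal. The main fits used no pairing, and the replicate block was an alternative.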

Additional observations from a re-analysis of the deposited data

How the results depend on the processing

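With 3 libraries per group and few reads on most members, only large differences could be detected. The counts of called members were the same in all settings except DESeq2, which called 1 member in CLCS against healthy cartilage. With the replicate block the log2 fold change of RPL10 was 1.04 in both comparisons with healthy cartilage (adjusted p = 0.229 and 0.121 in limma), and the block changed no call of a member. It took the members at an unadjusted p under 0.05 from 1 to 3 of 17 in CLCS against healthy and from 0 to 1 of 15 in CLCS against untreated cartilage, RPS21 among them in both (adjusted p = 0.224 and 0.884 in limma). Over all tested genes the block took this number from 576 to 668 of 3294 and from 95 to 164 of 3275, so that it rose for genes in general. The mean share of reads on members without RPL10 was 0.0900% in healthy, 0.0769% in untreated and 0.0586% in CLCS libraries, and the share with RPL10 in CLCS libraries was 0.599% of the total without ENSOCUG00000023467 and 0.620% without mitochondrial genes as well. Leaving out each library in turn, the shares ranged from 0.224% to 0.363%, from 0.480% to 0.626% and from 0.335% to 0.477%, the median log2 fold changes of members from -0.53 to 0.06 (untreated against healthy), from -0.45 to 0.21 (CLCS against healthy, where it was 0.03 without CLCS replicate 2) and from -0.12 to 0.34 (CLCS against untreated). On recovered reads, the medians against healthy cartilage were -0.39 with edgeR and -0.45 with DESeq2 in untreated, and -0.39 and -0.56 in CLCS treated defects. Small log2 fold changes changed sign. That of RPL4 in CLCS against healthy cartilage was -0.022 with edgeR, -0.022 with DESeq2 and -0.12 on library totals without ENSOCUG00000023467, where it was -0.070 against untreated cartilage, and RPL10 in CLCS against untreated cartilage was 0.0063 with TMM. With single libraries left out, the ranges in untreated against healthy cartilage were -0.056 to 0.23 for RPL27A, -0.30 to 0.22 for RPL4 and -0.27 to 0.58 for RPS21. In CLCS against healthy cartilage they were -0.22 to 0.26 for RPL4 and -0.65 to 0.052 for RPL7A, and in CLCS against untreated cartilage -0.17 to 0.15 for RPL10, -0.29 to 0.20 for RPL22, -0.21 to 0.30 for RPL4 and -0.25 to 0.89 for RPS20. Totals without ENSOCUG00000023467 shifted the median of all genes to -0.20 in CLCS against healthy and -0.15 in CLCS against untreated cartilage, beside -0.29 and 0.03 for the members, and the calls over all genes in CLCS against healthy cartilage were then 47 higher and 36 lower (56.6% higher), against 70 and 34 (67.3%) otherwise and 73 and 52 (58.4%) with the block. Apart from the numbers of libraries and genes, the cause of these changes was not tested.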
